A study of Homo sapiens with 2 samples.

Results

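Of 237104 CpG-dense 1 kb bins on the autosomes, 10737 bins, or 4.53% of the dense bins, were intermediately methylated in both acute myeloid leukemia (AML) cell lines of the study, and only 67 of them, 0.0283% of the dense bins, were uniformly so across their CpGs. The bins were chosen by their measured levels, so the levels that follow describe the choice and are not tests of it. The autosomes were divided into bins of 1 kb that do not overlap, and a bin was called dense when at least 20 of its CpGs were read more than 5 times in both lines. A CpG is a cytosine followed by a guanine, and its level is the share of its sequenced calls that were methylated. A dense bin was kept when the mean level of its CpGs lay between 35% and 65% in each line. The kept bins were then separated by their single CpGs. A bin was uniform when at least 70% of its CpGs lay between 25% and 75% in each line. It was an edge when 1 split, with at least 5 CpGs on either side, divided it into parts whose mean levels differed by at least 50 points in each line, with the same part high in both. This gave 67 uniform bins (0.624% of the kept bins) and 3522 edge bins (32.8%). Another 956 bins (8.90%) had an inner block of CpGs whose mean level differed by the same margin from the CpGs outside it. The remaining 6192 bins (57.7%) were of none of these forms.

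The study sequenced the bisulfite-converted whole genome of OCI-AML3, which carries a heterozygous mutation of DNMT3A, and of OCI-AML5, called AML5 in the study, in which DNMT3A is wild type. DNMT3A is one of the enzymes that place methyl groups on unmethylated CpGs. Both are established human AML cell lines grown in culture, each was sequenced as 1 library, and neither has a replicate. The lines differ in their whole genetic background as well as in DNMT3A, so a difference between them cannot be told apart from a difference between these libraries. The deposited tables held 878951432 calls over the autosomal CpGs in OCI-AML3 and 868999240 in OCI-AML5, and the median depth of a dense bin was 42.3 calls per CpG in OCI-AML3 and 37.3 in OCI-AML5. The median level of all dense bins was 82.2% in OCI-AML3 and 88.4% in OCI-AML5. Of the mitochondrial calls, pooled because their deposited positions did not match the reference used here, 0.168% were methylated in OCI-AML3 and 0.101% in OCI-AML5.

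Most CpGs of a mammalian genome are methylated, and most CpG-dense promoters, known as CpG islands, are not. The border between these states is usually short and lies in the shore of an island, so a bin that spans it has an intermediate mean although hardly any of its CpGs is intermediate. A different kind of intermediate level is known from imprinted control regions, where the copy from one parent is methylated and the copy from the other parent is not. These regions keep their methylation in the early embryo, when most of the genome loses it, through the zinc finger protein ZFP57, which binds the methylated motif TGCCGC. Counts of calls at single CpGs do not say which calls come from the same molecule. A region with 1 methylated and 1 unmethylated copy, a mixture of cells and partial methylation of every copy therefore cannot be told apart here.

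The sequences below show what uniform bins look like at the base level. Each is the stretch of 240 bases with the most CpGs outside untranslated regions in a uniform bin at a named gene, read 5′ to 3′ from the plus strand of GRCh37 (hg19), with the CpGs in capitals and all other bases in lower case. The first is from an intron of PLAGL1 (chr6:144329568-144329807), a zinc finger transcription factor gene expressed from the paternal copy.
PLAGL1: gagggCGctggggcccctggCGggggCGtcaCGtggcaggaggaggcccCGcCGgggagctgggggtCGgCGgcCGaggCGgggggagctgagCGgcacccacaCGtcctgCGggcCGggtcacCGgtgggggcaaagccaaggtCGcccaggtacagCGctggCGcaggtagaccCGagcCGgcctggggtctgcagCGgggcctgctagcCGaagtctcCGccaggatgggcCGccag
The next is from an intron of H19 (chr11:2021005-2021244), a maternally expressed long noncoding RNA.
H19: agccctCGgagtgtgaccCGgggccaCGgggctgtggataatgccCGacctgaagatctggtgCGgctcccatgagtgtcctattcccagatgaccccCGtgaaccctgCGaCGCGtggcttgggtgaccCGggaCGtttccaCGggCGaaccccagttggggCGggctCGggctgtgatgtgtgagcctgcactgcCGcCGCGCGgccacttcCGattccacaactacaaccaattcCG
The third is from a coding exon of GNAS (chr20:57464759-57464998), which encodes the alpha subunit of the stimulatory G protein and uses several imprinted promoters.
GNAS: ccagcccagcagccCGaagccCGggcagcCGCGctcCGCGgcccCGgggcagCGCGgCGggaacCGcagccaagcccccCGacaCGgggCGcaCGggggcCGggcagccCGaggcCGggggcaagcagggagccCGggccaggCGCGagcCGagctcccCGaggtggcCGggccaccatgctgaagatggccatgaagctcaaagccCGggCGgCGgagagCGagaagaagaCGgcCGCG
The fourth spans a coding exon of L3MBTL1 (chr20:42143325-42143564), a Polycomb-related chromatin reader gene whose loss with part of chromosome 20 is known in myeloid disease.
L3MBTL1: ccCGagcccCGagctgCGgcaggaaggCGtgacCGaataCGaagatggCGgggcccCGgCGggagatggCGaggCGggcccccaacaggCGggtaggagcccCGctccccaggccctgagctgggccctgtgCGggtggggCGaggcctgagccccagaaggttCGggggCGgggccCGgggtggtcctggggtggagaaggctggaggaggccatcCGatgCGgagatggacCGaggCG
The fifth lies in an intron of SNU13 (chr22:42078065-42078304), a small nucleolar ribonucleoprotein gene.
SNU13: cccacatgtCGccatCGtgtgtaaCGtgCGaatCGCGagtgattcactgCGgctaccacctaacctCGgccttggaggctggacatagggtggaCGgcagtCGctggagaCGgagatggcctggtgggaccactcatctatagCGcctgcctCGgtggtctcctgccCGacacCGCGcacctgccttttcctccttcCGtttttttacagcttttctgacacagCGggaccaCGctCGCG
The last lies just upstream of ZFP37 (chr9:115819104-115819343), a zinc finger gene outside the imprinted list used here, in sequence annotated as intergenic.
ZFP37: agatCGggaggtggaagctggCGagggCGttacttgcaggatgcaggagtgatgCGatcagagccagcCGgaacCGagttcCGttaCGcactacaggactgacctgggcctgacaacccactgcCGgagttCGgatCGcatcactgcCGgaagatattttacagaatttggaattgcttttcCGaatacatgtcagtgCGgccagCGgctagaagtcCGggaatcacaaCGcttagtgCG

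Across these stretches the CpGs were not at 0 or at 100% in turn but mostly in between. All 31 CpGs of the GNAS stretch lay between 33.3% and 51.6% in OCI-AML3 (median 47.1%) and between 25.6% and 47.5% in OCI-AML5 (median 37.8%). In the SNU13 stretch the 21 CpGs lay between 31.7% and 48.8% in OCI-AML3 (median 41.2%) and higher, between 44% and 70.6%, in OCI-AML5 (median 57.1%). The 22 CpGs of the L3MBTL1 stretch were lower, between 19.4% and 37.9% in OCI-AML3 and between 10.0% and 47.6% in OCI-AML5. The PLAGL1, H19 and ZFP37 stretches had a wider spread. The 24 CpGs of PLAGL1 reached up to 93.2% in OCI-AML3 (lowest 26.2%, median 39.8%) and up to 100% in OCI-AML5 (lowest 33.3%, median 46.5%). The H19 stretch had CpGs from 0% to 92.7% in OCI-AML3 (median 51.4%) against 44.4% to 73.8% in OCI-AML5 (median 63.3%). In the ZFP37 stretch it was OCI-AML5 that spread more, from 11.3% to 97.9% (median 56.2%), against 33.6% to 54.8% in OCI-AML3 (median 44.9%). Median depth per CpG in the stretches was 47 to 98.5 calls in OCI-AML3 and 33 to 60 in OCI-AML5. The ZFP57 motif TGCCGC, searched on both strands, was found 1 time each in the PLAGL1, H19 and L3MBTL1 stretches and in none of the other 3.

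The 67 uniform bins lay in 61 separate regions on 19 chromosomes, and 6 regions consisted of 2 adjoining bins. Chromosome 6 held 13 of the bins and chromosome 20 held 8. A median of 86.2% of a uniform bin's CpGs were between 25% and 75% in OCI-AML3 and 81.2% in OCI-AML5, where an edge bin had 15.8% and 15.0%. The rule fixed that contrast. The standard deviation of the CpG levels within a uniform bin had a median of 16.4 points in OCI-AML3 and 17.6 points in OCI-AML5, and counting error alone would give 7.58 and 8.34 points at these depths. The CpGs of edge bins had a standard deviation of 41.4 points in each line, a contrast that the rule also sets. Uniform bins were not as even as 1 shared level would be. In 1 uniform bin the best split also separated parts that differed by 50 points or more in both lines, and in 2 bins in at least 1 line. The 5 uniform bins nearest to the limit had 70% to 71.2% intermediate CpGs in the line with fewer, the 5 bins just outside had 69.4% to 69.6%, and 64 bins lay within 5 points outside the limit against 19 within 5 points inside.

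**Figure D1:**
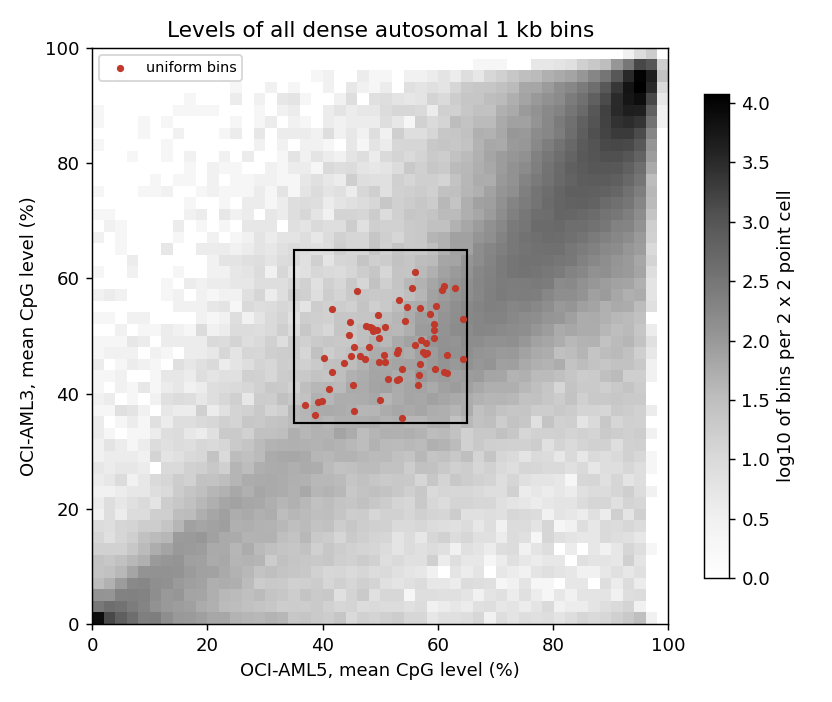
Mean CpG level of every dense autosomal 1 kb bin in OCI-AML3 (vertical, %) and OCI-AML5 (horizontal, %), with gray for the log10 number of bins per cell of 2 by 2 points. The square marks the limits of 35% and 65% that hold the 10737 kept bins, and the 67 red points are the uniform ones, scattered within it.

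The lines overlapped in part in which bins were intermediate. Of the 35759 dense bins between the limits in OCI-AML3, 30.03% were also between them in OCI-AML5, 65.8% were above and 4.18% below. In OCI-AML5 19232 dense bins were between the limits, and 55.8% of these were in OCI-AML3 too, with 14.5% above and 29.7% below. Counted in each line by itself, OCI-AML3 had 869 uniform bins (0.367% of the dense bins) and OCI-AML5 had 565 (0.238%), and the 67 in common are 7.71% of the first and 11.9% of the second. No gap in the levels set the limits. The 5 bins just inside the lower limit had 35% to 35.02% in 1 of the lines, and within 5 points of the limits lay 2429 bins inside and 2113 outside at the lower end and 4203 inside and 5784 outside at the upper end.

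Genes of the imprinted list held 16 of the 67 uniform bins (23.9%), in 12 regions. The list has 58 genes taken here as imprinted, all with at least 1 dense bin, and their expression from 1 parental copy was not tested. Of these, 28 (48.3%) had a kept bin and 12 (20.7%) had a uniform one, counting bins that touch the gene or lie within 2000 bp of its start. Over all 38680 annotated genes with a dense bin the shares were 17.3% and 0.222%, and over the 17628 protein-coding ones 23.2% and 0.272%. A gene with many dense bins has more places for a kept one. Counted by bin, 48 of the 816 dense bins at the imprinted list (5.88%) were kept, against 4.53% of all dense bins. The list and the kept bins were both drawn up with results of these data known, so the shares are a description. Imprinted genes are often neighbors, and some of the 12 share a bin.

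At GNAS 3 uniform bins were found. The pair at chr20:57463001-57465000, at the start of a GNAS transcript, had 51.8% in OCI-AML3 and 47.5% in OCI-AML5 over 58 CpGs in its first bin, and 38.0% and 36.99% over 116 CpGs in the second. In the second bin 1 of the 116 CpGs was called different between the lines. Such calls, here and below, are from the exact test of single CpGs described further on, adjusted over all CpGs. That test called 18.5% of all CpGs tested, and the counts for single bins were not adjusted for depth. A CpG that was not called may still differ. On one side of this pair, 1 to 5 kb away, OCI-AML3 had 75.9% and OCI-AML5 had 93.6%, and on the other side they had 1.42% and 2.22%, so the region lay between a methylated and an unmethylated stretch. The third bin, chr20:57414001-57415000, shared with the antisense gene GNAS-AS1, had 51.4% and 48.5% over 33 CpGs.

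The PLAGL1 and HYMAI promoter on chromosome 6 had a pair of uniform bins at chr6:144328001-144330000. HYMAI is a paternally expressed noncoding RNA within PLAGL1. Its first bin had 50.9% in OCI-AML3 and 48.7% in OCI-AML5 over 34 CpGs, and the pooled calls gave 49.8% (95% Wilson interval 47.5 to 52.0%) and 50.2% (47.5 to 52.8%). The second bin had 38.6% and 39.2% over 114 CpGs, with a median CpG of 34.7% and 29.8% and a steep rise to 98.8% and 100% at its end. This bin held 6 copies of TGCCGC. It met the uniform rule, with 87.7% and 70.2% intermediate CpGs, and its end is nevertheless an edge.

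Both lines also had like levels at L3MBTL1 and at MCTS2. The pair of bins at the L3MBTL1 promoter, chr20:42142001-42144000, had 46.1% in OCI-AML3 and 47.4% in OCI-AML5 over 34 CpGs, then 40.8% and 41.1% over 51 CpGs. MCTS2 is a paternally expressed retrogene in an intron of HM13, which encodes a signal peptide peptidase. Its bin, chr20:30135001-30136000, was the evenest of the imprinted set: all 36 CpGs were intermediate in both lines, between 36.5% and 61.4% in OCI-AML3 and between 42.4% and 68.4% in OCI-AML5. The standard deviation over these CpGs was 5.56 and 5.79 points, and none of the 36 was called different between the lines. Levels in the 1 to 5 kb on either side were 88.6% and 91.5% in OCI-AML3 and 94.3% and 95% in OCI-AML5.

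At the other imprinted genes OCI-AML3 was the lower line in most bins. H19 had 3 uniform bins that alternated with bins above the limit in OCI-AML5. From chr11:2019001 to chr11:2024000 the 5 consecutive bins had 48.7%, 50.5%, 41.6%, 42.1% and 35.8% in OCI-AML3. In OCI-AML5 the same bins had 58.0%, 71.1%, 56.5%, 71.9% and 53.7%. Each of the 5 was lower in OCI-AML3. The intragenic region of IGF1R, the receptor of insulin-like growth factor 1, lay in an intron at chr15:99408001-99410000 and had 45.1% against 56.8% and 46.9% against 57.7%, between flanks of 75.6% and 75.4% in OCI-AML3 and 92.8% and 94.4% in OCI-AML5. The bin at the ZNF597 and NAA60 starts, chr16:3493001-3494000, had 49.7% in OCI-AML3 and 59.4% in OCI-AML5. The SNU13 bin, chr22:42078001-42079000, had 47.3% and 57.4%. FAM50B, a retrogene expressed from the paternal copy, went the other way, with 56.2% in OCI-AML3 and 53.3% in OCI-AML5 at chr6:3849001-3850000.

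Some imprinted genes were uniform in 1 line and not in the other. Of the 58 genes, 22 (37.9%) had a uniform bin in OCI-AML3 and 19 (32.8%) in OCI-AML5, against 2.23% and 1.7% of all annotated genes with a dense bin. A uniform bin only in OCI-AML3 was found at 10 genes and only in OCI-AML5 at 7, and the other 12 had one in common. Over all annotated genes only 86 had a uniform bin in common, of 863 with one in OCI-AML3 and 659 with one in OCI-AML5, so that a uniform bin in a single line was the usual case among genes in general. In 11 imprinted genes no bin lay between the limits in either line. In OCI-AML5 the start of SNRPN and SNURF, the control region of the Prader-Willi and Angelman cluster, was uniform at chr15:25200001-25201000 with 41.7%, and OCI-AML3 had 89.0% there. ZNF331, a zinc finger gene, had 48.5% in OCI-AML5 and 1.197% in OCI-AML3 at chr19:54041001-54042000. The reverse was seen at PEG10, a retrotransposon-derived gene, where OCI-AML3 had 54.1% and OCI-AML5 had 0.312% at chr7:94287001-94288000. MEST, a paternally expressed hydrolase gene, had 63.0% in OCI-AML3 and 6.05% in OCI-AML5 at chr7:130131001-130132000. NAP1L5 had 62.8% in OCI-AML3 and 94.9% in OCI-AML5 at chr4:89618001-89619000. KCNQ1OT1, the noncoding RNA of the KCNQ1 cluster, missed the set narrowly: its bin chr11:2721001-2722000 had 39.98% in OCI-AML3 and 32.8% in OCI-AML5, with 99.0% and 93.9% of CpGs intermediate. The genes counted share bins where they are neighbors, as PEG10 and SGCE do. In these examples the line that was not intermediate was nearly unmethylated, highly methylated or just past the limit.

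Of the other 51 uniform bins, 8 overlapped no gene. The largest by CpGs was the shared promoter region of CIDEB, LTB4R and LTB4R2, chr14:24780001-24781000, with 99 CpGs. CIDEB is a lipid droplet protein, and LTB4R and LTB4R2 are receptors of leukotriene B4, a chemoattractant of neutrophils. OCI-AML3 had 46.1% there and OCI-AML5 had 40.2%, with 100% and 99.0% of CpGs intermediate. Only 1 of the 99 CpGs was called different between the lines, although just 21.2% of them were lower in OCI-AML3. PAX8 and its antisense PAX8-AS1, where PAX8 is a thyroid and kidney transcription factor, had 43.8% and 41.7% over 90 CpGs at chr2:113993001-113994000. The homeobox gene DBX2 had 53.8% and 58.6% over 88 CpGs at chr12:45444001-45445000.

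Several of these bins had nearly the same level in both lines. NLRP6, an inflammasome sensor gene, had 49.7% in OCI-AML3 and 49.8% in OCI-AML5 over 69 CpGs at chr11:281001-282000. Even so, 18 of those CpGs were singly called different, where 18.5% of all CpGs tested were called. Of the 18, 8 were lower in OCI-AML3. The depth of this bin was 2.14 times the median of the dense bins in OCI-AML3 and 1.30 times in OCI-AML5. ZFP37 had a pair of bins at chr9:115818001-115820000 with 46.5% against 44.9% and 48.0% against 48.0%. The first ZFP37 bin was read at 2.09 times the median depth in OCI-AML3 and 1.27 times in OCI-AML5. MGAT4D, a testis-expressed glycosyltransferase relative, had 52.7% and 54.2% over 69 CpGs at chr4:141419001-141420000. THBD, which encodes the anticoagulant receptor thrombomodulin, had a wider difference, 42.6% against 51.4% over 68 CpGs, at chr20:23028001-23029000. The mitochondrial protein gene OCIAD2 had 51.5% and 48.3% at chr4:48908001-48909000, and the adhesion receptor gene FLRT2 had 47.6% and 53.1% at chr14:86000001-86001000, each over 64 CpGs. The noncoding LINC01087 and the pseudogene GRAMD4P8 shared a bin of 61 CpGs with 54.8% and 56.8% at chr2:132404001-132405000. A pair of bins at the noncoding ENSG00000227706, chr6:68596001-68598000, had 52.4% against 44.7% and 36.4% against 38.7%. OCI-AML3 was thus the higher line in some of these bins and the lower in others.

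PEG13, a paternally expressed noncoding RNA in an intron of TRAPPC9, was not in the imprinted list, and its difference between the lines, OCI-AML3 minus OCI-AML5, was -18.0 points. Its bin on chromosome 8, chr8:141109001-141110000, had 43.6% in OCI-AML3 and 61.6% in OCI-AML5 over 60 CpGs. In OCI-AML5 all 60 CpGs were intermediate, with a standard deviation of 4.87 points, the smallest among the named bins. In OCI-AML3 the standard deviation was 19.7 points. The CpGs called different between the lines numbered 49 of 60, where 18.5% of all CpGs tested were called. Of the 49, 43 were lower in OCI-AML3. Depth there was 2.24 times the median in OCI-AML3 and 2.33 times in OCI-AML5. Like the second PLAGL1 bin, it held 6 copies of TGCCGC.

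Some uniform bins stood apart in depth. The median relative depth of the 67 bins, as a multiple of the median dense bin, was 1.198 in OCI-AML3 and 1.07 in OCI-AML5, and 7 bins (10.4%) exceeded 2 times the median depth of the dense bins, against 2.91% of all dense bins. None of the 16 bins of the imprinted list was among the 7. Of the 67 bins, 6 had at least 1 further copy in the genome of 500 bp or more at 95% identity or more, and 4 of the 7 deep bins were among these 6. The deepest, on chromosome 16 near LINC00273, had 13.5 and 13.4 times the median depth. The bin at the pseudogene CCDC144BP, with 3 further copies, had 41.6% in OCI-AML3 and 45.2% in OCI-AML5 at an ordinary depth of 1.06 and 0.833 times the median. Reads of such copies may have been assigned to 1 of them, and the part of this in the levels was not tested. Without deep bins 60 uniform bins remained.

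The uniform bins differed from the other bins in the frequency of some sequence and position features. Their median of 40 CpGs, above a minimum of 20 set by the rule, compares with 28 in edge bins and 26 in all dense bins. The ratio of observed to expected CpGs, which is near 1 where CpGs have not been lost by mutation, had a median of 0.5996 in uniform bins, 0.430 in edge bins and 0.422 in all dense bins. Bins like CpG islands, with at least 50% G and C and a ratio of at least 0.6, were 34.3% of the uniform bins and 11.5% of all dense bins. A start site lay within 2000 bp of 52 uniform bins (77.6%), against 59.5% of edge bins and 40.3% of all dense bins, and 34 uniform bins held one. By annotation 18 uniform bins overlapped a coding exon, 28 only another exon, 13 only introns and 8 no gene. TGCCGC, 6 letters searched on both strands, was present in 34.3% of the uniform bins and 25.3% of all dense bins. Split further, it was present in 8 of the 16 bins at imprinted genes (50.0%) and in 15 of the other 51 (29.4%). A uniform bin has more CpGs and so more places for a motif that contains a CpG, and this was not adjusted for.

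At 1 to 5 kb from the uniform regions the median level of the flanks was 75.1% in OCI-AML3 and 85.1% in OCI-AML5, and both flanks were above 65% in 28 of the 61 regions in OCI-AML3 and in 37 in OCI-AML5. In 24 regions both flanks were above 65% in both lines, in 2 regions both were between the limits in both lines, and in 13 regions at least 1 flank value was below 35%. In OCI-AML5 most uniform regions were therefore dips in a methylated surrounding, and few regions had intermediate flanks in both lines at once. Some had both flanks intermediate in OCI-AML3 only, such as DBX2 with 50.4% and 59.6% and DLGAP2 with 45.5% and 49.8%.

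**Figure D2:**
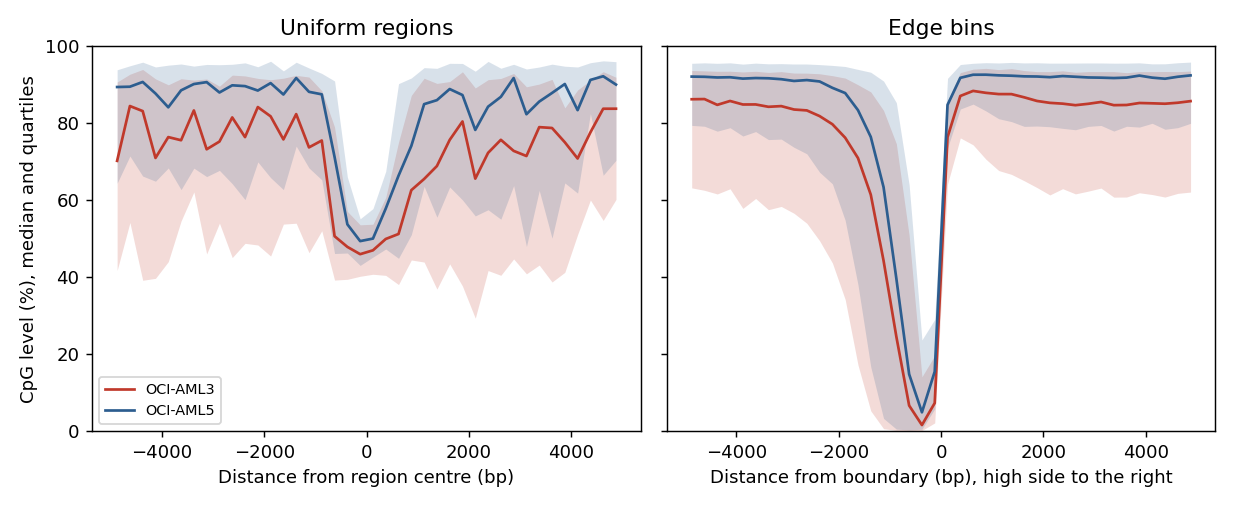
Median CpG level (lines, %) with quartiles (shading) in steps of 250 bp around the centers of the 61 uniform regions (left) and around the boundary of the 3522 edge bins, with the high side to the right (right), in OCI-AML3 (red) and OCI-AML5 (blue). Uniform regions dip to 46.0% and 49.3% just left of the center, and edge bins step from 1.61% and 4.92% at 375 bp on the low side to 87.0% and 91.7% at 375 bp on the high side.

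The edge bins joined a low and a high part, as the rule asks. The median difference across the split was 73.7 points in OCI-AML3 and 74.5 points in OCI-AML5. In the profile around the boundary, 375 bp into the low side the median level was 1.61% in OCI-AML3 and 4.92% in OCI-AML5, and 375 bp into the high side it was 87.0% and 91.7%. The low side had more CpGs, with a median of 3.43 per 100 bp against 2.74 on the high side, and was the denser side in 2348 bins (66.7%). Of 2006 edge bins with a start site within 2000 bp of the boundary, the start was on the low side in 1609 (80.2%). In the neighboring 1 kb bins the median level was 28.3% and 38.8% beyond the low side and 85.6% and 90.9% beyond the high side. In 1316 of 3302 edge bins (39.9%) with both neighbors measured, the bin beyond the low side was below 35% and that beyond the high side above 65% in both lines.

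The sharpest edges show the form at its clearest, and since they were picked for a large difference in both lines their likeness between the lines is part of the choice. At DNAJC6, which encodes the clathrin-uncoating cofactor auxilin, the bin chr1:65719001-65720000 fell from 96.4% to 0.691% in OCI-AML3, and in OCI-AML5 it fell from 96.6% to 0.311%. At the zinc finger gene ZNF708 the bin chr19:21512001-21513000 rose from 1.08% to 97.2% in OCI-AML3, and in OCI-AML5 it rose from 1.33% to 95.6%. The bin of DGUOK on chromosome 2, which encodes a mitochondrial deoxynucleoside kinase, and that of SCARF1 on chromosome 17, a scavenger receptor gene, were alike. These are 4 of the 5 edge bins with the largest differences. All 4 had their split between the same CpGs in both lines, and none of their CpGs was called different between the lines. In each, the low side faced the nearest start.

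The boundary was often, but not always, at the same place. In 1452 edge bins (41.2%) the split fell between the same CpGs in both lines. The median distance between the splits of the lines was 40.5 bp (quartiles 0 and 146 bp), 53.2% of bins were within 50 bp, 65.8% within 100 bp, and 14.6% were over 200 bp apart. The unmethylated side reached further in OCI-AML3 in 1421 bins (40.3%) and further in OCI-AML5 in 649 (18.4%), with a mean shift of 35.6 bp toward a longer low side in OCI-AML3. Only borders that stay inside a single bin in both lines are counted, so larger shifts are left out by the rule.

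A difference in mean level went the same way as in the genome. OCI-AML3 was lower in 44 of the 67 uniform bins (65.7%), 80.5% of the edge bins and 79.6% of all dense bins. The median difference, OCI-AML3 minus OCI-AML5, was -3.68 points in uniform bins, -5.73 in edge bins, -7.48 in bins with an inner block, -7.53 in bins of no form and -3.77 in all dense bins. Over the 67 uniform bins it ran from -18.2 to 13.0 points, with 33 bins within 5 points and 18 over 10 points apart. The rule caps these differences at the width of the kept range. At single CpGs, Fisher's exact test of the methylated and unmethylated calls, with Benjamini-Hochberg adjustment over 24454751 CpGs, called 18.5% of all CpGs different between the libraries at an adjusted p under 0.05, 14.7% lower in OCI-AML3 and 3.86% higher. The share was 29.3% in the kept bins, 14.6% in uniform bins (437 of 2983 CpGs), 19.9% in edge bins and 34.8% in bins of no form. In the uniform bins 309 of the 437 were lower in OCI-AML3 and 128 higher. The rule used the same contrast, so nothing is read from these shares, and with 1 library a line the test compares the libraries and not DNMT3A states.

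Within a uniform bin the ups and downs of single CpGs were only partly shared. Across the CpGs of a bin, which share reads and depth, the correlation of levels between the lines had a median of 0.439 in the 67 uniform bins, ranging from -0.467 to 0.941, as against 0.898 in edge bins, where the step itself sets it.

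The 6192 bins of no form held low, intermediate and high CpGs in varying shares. In OCI-AML3 a median of 30% of their CpGs were below 25%, 40% intermediate and 29.4% above 75%. In OCI-AML5 these were 20.8%, 41.4% and 38.1%. The HOX genes, homeobox regulators of body axis and of blood progenitors, had 33 kept bins among 230 dense ones (14.3%, against 4.53% of all dense bins). These bins were at 15 of the 39 HOX genes, all in the HOXB, HOXC and HOXD clusters, and no HOXA gene had one. Of the 33, 26 were of no form, a form that 57.7% of all kept bins had, 5 had an inner block and 2 were edges. None was uniform, which at 0.624% of kept bins in general says little. HOXD3 alone had 13 kept bins of 21 dense ones. These 13 lay between 39.7% and 64.8% in OCI-AML3 and between 39.5% and 59.2% in OCI-AML5, with a median of 47.6% and 54.2% of CpGs intermediate. The 13 were not all adjoining, and 11 were of no form and the others had an inner block.

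In other gene lists the counts of uniform bins were 0 or 1, where the 0.222% of all annotated genes with a uniform bin would give about as few. Of 60 clustered protocadherin genes, whose variable exons are chosen by promoter methylation in neurons, 41 had a kept bin and none a uniform one. But these genes share exons, and the 41 rest on 9 of 189 dense bins (4.76%), near the 4.53% of all dense bins. Of 467 zinc finger genes with symbols of ZNF and a number, a list that leaves out ZFP37 and PLAGL1, 22.1% had a kept bin, 15.4% an edge and 1, ZNF597, a uniform bin, near the shares of protein-coding genes (23.2%, 13.9% and 0.272%). Of 34 germline genes, which are silenced by promoter methylation in somatic cells, 7 (20.6%) had a kept bin and none was uniform. Of all annotated genes with a dense bin, 17.3% had a kept one. Edges were found at 3 of 9 writers and erasers of methylation, too few genes to set against the 9.18% of all annotated genes with an edge bin. The DNMT3A bin, chr2:25487001-25488000, had 62.5% in OCI-AML3 and 59.0% in OCI-AML5, the DNMT3B bin 36.4% and 55.3%, and the UHRF1 bin, at the gene for the reader that brings maintenance methylation to replicating DNA, 45.9% and 49.9%. Of the 12 genes of the study's hypomethylation signature, which was chosen with these lines, 11 had a dense bin and 2 a kept one, CADM1 and KLF2, and none a uniform one.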

How the data were processed

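Whole-genome bisulfite libraries of OCI-AML3 and OCI-AML5 (1 per line) were analyzed. Per the study's methods and the submitters' processing notes, the authors aligned paired-end reads to hg19 with Bismark and Bowtie 0.12.8 and deposited, for each CpG, the counts of its methylated and its unmethylated calls with both strands added. Whether duplicate reads were removed is not given in the sources used here, and 1 read can give several calls, so Wilson intervals cover counting error only.

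The counts were used as deposited, at CpGs read more than 5 times in both lines. Levels, bins, classes and splits were computed in Python 3.11.15 (numpy 2.4.6, pandas 2.3.3) and tested on simulated bins of known form. Fisher's exact tests were two-sided, with Benjamini-Hochberg adjustment over all CpGs. Genes and start sites are from GENCODE on GRCh37, and further copies of uniform bins were searched with blastn 2.17.0. The named bins are those at genes of the imprinted list, the 12 largest uniform regions by CpGs, the next 8, and the 5 sharpest edges, 1 of which is not reported here. HOXD3, members of lists named singly and the imprinted genes uniform in 1 line were added after their values were seen. The bins and gene lists were chosen with earlier results of these data known. Alternatives covered read and CpG minimums, limits, the grid, depth and class thresholds.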

Additional observations from a re-analysis of the deposited data

How the results depend on the processing

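Of 34 alternative values, 24 stayed within 1.5 times the reported one and 10 did not. With a minimum of 30 CpGs 4079 bins were kept and 1533 were edges, and with a minimum of 10 CpGs 54028 were kept, 190 were uniform and 8700 were edges. Limits of 0.40 and 0.60 kept 4492 bins, of which 1734 were edges. Asking for at least 60% intermediate CpGs gave 233 uniform bins and at least 80% gave 30, against 67. Bonferroni adjustment left 15892 CpGs of kept bins called different, against 102990. These counts follow from the limits themselves. Uniform bins stayed between 0.352% and 1.18% of the kept bins under the 7 alternatives that change which bins are kept, and edges between 16.1% and 38.6%. At 10 or more reads 9673 bins were kept and 79 were uniform, and the cause was not tested. A CpG read 6 times has a coarse level. No paired analysis was possible because each line is 1 library.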
